A study of Mus musculus with 18 samples.

Results

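The signal regulatory protein (SIRP) receptors and the ligand CD47 were followed at the level of RNA in bone marrow-derived macrophages (BMMs). The 5 genes were found by their symbols, Sirpa, Sirpb1a, Sirpb1b, Sirpb1c and Cd47, among the 38887 genes of the data, and all 5 had counts high enough to be tested in every comparison. RNA of BMMs from female C57BL/6J mice was sequenced with 3 libraries for each of 3 genotypes and 2 treatments, 18 libraries in all. Cells had been grown from marrow of adult mice with M-CSF and were left untreated or received 100 ng/ml LPS, bacterial lipopolysaccharide, for 4 h. WT mice were described in the study's methods as carriers of Cre recombinase at the Lyz2 locus (Lyz2tm1(cre)Ifo), active in myeloid cells. GILZ KO mice carried the same Cre and loxP sites around exon 6 of Tsc22d3, the gene of glucocorticoid-induced leucine zipper (GILZ). GILZ TG mice carried the Cre and a Gilz-1 cDNA in ROSA26 behind a stop cassette that Cre removes. The total expected count per library was between 14583055 and 38557029, with the lowest values in GILZ KO after LPS.

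CD47 is a membrane protein of nearly all cells that tells phagocytes not to eat them. Its receptor on macrophages, SIRPα, carries inhibitory motifs (ITIMs) in its cytoplasmic tail, which recruit the phosphatases SHP-1 and SHP-2 when CD47 is bound and thereby hold back engulfment. The SIRPβ1 receptors have similar extracellular domains but a short tail, and they signal through the adaptor DAP12 and the kinase Syk, which promotes phagocytosis. Macrophages carry both kinds of receptor and also CD47 itself.

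In the GRCm38 assembly Sirpa lies at chr2:129592835-129632228 on the plus strand and Cd47 at chr16:49800533-49915010 on the plus strand. The 3 Sirpb1 genes lie side by side on the minus strand, Sirpb1a at chr3:15371653-15426520, Sirpb1b at chr3:15495751-15575065 and Sirpb1c at chr3:15795145-15848528, with gaps of 69.2 kb and 220 kb between them. They are near copies of each other. Over 1401 aligned transcript positions, 41 (2.93%) differed among the 3 genes. The stretch of exon 2 below, at chr3:15417001-15417090, chr3:15548755-15548844 and chr3:15838773-15838862, is coding sequence with many of the differences and shows which bases tell the copies apart in a read of 75 bases. Capitals mark the 10 of its 90 positions at which the genes differ.
Sirpb1a: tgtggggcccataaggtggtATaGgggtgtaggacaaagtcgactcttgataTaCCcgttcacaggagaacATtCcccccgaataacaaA
Sirpb1b: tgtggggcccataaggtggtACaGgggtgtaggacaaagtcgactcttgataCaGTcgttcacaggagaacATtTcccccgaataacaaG
Sirpb1c: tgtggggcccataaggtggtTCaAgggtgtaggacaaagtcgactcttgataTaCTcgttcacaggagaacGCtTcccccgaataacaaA
Of all stretches of 75 bases in the transcripts, 34.5% of those of Sirpb1a, 58.3% of those of Sirpb1b and 46.4% of those of Sirpb1c were also found in another gene, in each case in the other Sirpb1 genes. Sirpa shared none, and Cd47 shared 0.0384%. The deposited standard deviation of the estimated count, which reflects reads that could belong to more than 1 transcript, was at most 12.2% of the count for Sirpb1b, 10.8% for Sirpb1a and 2.71% for Sirpb1c, but at most 0.744% for Cd47 and 0.0001% for Sirpa. The split of reads among the Sirpb1 genes is therefore uncertain, and their summed counts, which do not depend on it, are given beside the single genes.

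The sequence upstream of the 3 genes is also alike, with 9 of 157 positions that differ. The 157 bases before the start of each gene model in GRCm38.p6 (RefSeq sequence; chr3:15426521-15426677, chr3:15575066-15575222 and chr3:15848529-15848685, all read on the minus strand) are shown because the untreated GILZ KO libraries lay above the GILZ TG ones without overlap for all 3 genes. In that comparison 28.7% of all genes did not overlap, in either direction, and the 3 genes share reads. Whether this sequence has a part in the difference was not tested. Capitals mark these 9 positions, of which 6 carry a base found in Sirpb1a alone, 2 one found in Sirpb1b alone and 3 one found in Sirpb1c alone, with 1 position counted for each gene because all 3 differ there.
Sirpb1a: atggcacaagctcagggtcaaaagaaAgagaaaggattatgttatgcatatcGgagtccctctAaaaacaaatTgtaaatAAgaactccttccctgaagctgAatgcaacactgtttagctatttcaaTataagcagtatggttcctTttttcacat
Sirpb1b: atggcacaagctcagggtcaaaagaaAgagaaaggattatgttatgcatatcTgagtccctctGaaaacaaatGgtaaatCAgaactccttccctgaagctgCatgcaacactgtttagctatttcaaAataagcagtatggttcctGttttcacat
Sirpb1c: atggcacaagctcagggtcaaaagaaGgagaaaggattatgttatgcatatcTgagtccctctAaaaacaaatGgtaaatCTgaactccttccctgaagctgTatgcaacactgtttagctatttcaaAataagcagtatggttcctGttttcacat
A promoter of RefSeq, 250 bases before to 50 after the start, was at hand for Cd47 and the 3 Sirpb1 genes, 4 of the 5 genes. Motifs of 3 factors active in macrophages were looked for on both strands of these 300 bases. The PU.1 core GAGGAA was in 28.3% of 27025 promoters, the AP-1 site TGANTCA in 7.93% and the NF-kB site in 4.35%, and none of them was found in the 4 windows.

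The genotype labels were checked first. Levels are given as TPM, the share of a transcript among all transcripts, corrected for length. For Tsc22d3 the 3 untreated libraries of WT had 15.8, 14.9 and 18.8 TPM, those of GILZ KO had 1.89, 2.81 and 2.31 TPM, and those of GILZ TG had 155.9, 159.8 and 152.0 TPM. After LPS its means were 5.15 ± 0.627, 2.91 ± 0.392 and 131.7 ± 7.64 TPM (SD, n = 3). The 3 genotypes did not overlap in either treatment, in the order their labels give. Lyz2, the lysozyme gene that holds the Cre, did not follow the description of WT. Its untreated level was 12840 ± 2276 TPM in WT, while GILZ KO and GILZ TG had only 33.6 ± 10.6 and 33.0 ± 18.3 TPM (SD, n = 3). In each comparison with WT a difference due to GILZ and one due to the Lyz2 locus cannot be told apart, whereas GILZ KO and GILZ TG have like Lyz2 levels. The LPS labels held, as Tnf went from 143.0 ± 14.8 to 2021 ± 131 TPM and Il6 from 0.537 ± 0.0651 to 1044 ± 153 TPM in WT (SD, n = 3).

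The 7 macrophage markers summed to between 3825 and 5021 TPM in all libraries, with Cd68 or Cd14 the most abundant. RNA of other cells stood out in replicates 1 and 2 of GILZ TG. The 7 stromal markers, led by Col1a1, summed to 103.9 and 120.1 TPM in untreated replicates 1 and 2 of GILZ TG and to 10.3 TPM in replicate 3, and in the untreated WT and GILZ KO libraries to at most 22.9 TPM. The 7 neutrophil markers, led by S100a9, summed to 153.2, 401.2 and 57.3 TPM and the 5 B cell markers to 84.5, 143.8 and 27.97 TPM in the 3 untreated GILZ TG libraries. Replicates 1 and 2 of GILZ TG were also the highest in the 3 lists after LPS. The dendritic cell, T cell and erythroid markers summed to at most 1.08 TPM in all libraries. The 5 endothelial markers, led by Kdr, had higher sums after LPS, with means of 4.12, 4.62 and 4.05 TPM in untreated WT, GILZ KO and GILZ TG and of 11.9, 9.79 and 9.55 TPM after it, and their part in the LPS results was not tested. Replicate 3 of GILZ TG was not free of them, as its neutrophil and B cell sums lay above those of all WT and GILZ KO libraries of its treatment, where the neutrophil sum was at most 49.7 TPM untreated and 65.1 TPM after LPS and the B cell sum at most 25.2 and 17.5 TPM, and replicate 3 had 73.2 and 21.6 TPM after LPS. The main results on GILZ TG are also given without replicates 1 and 2, which lowers this RNA but does not remove it.

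Sirpa was among the most abundant genes of these macrophages. Untreated WT libraries had 709.1, 637.3 and 579.2 TPM, those of GILZ KO 661.4, 713.4 and 645.8 TPM, and those of GILZ TG 721.8, 675.2 and 599.2 TPM. Its mean in WT ranked 248 of 38887 genes. The 3 genotypes overlapped throughout, and no comparison of genotypes in untreated cells came near the threshold, with log2 fold changes between -0.02 and 0.04. Cd47 was lower, at 177.1, 189.5 and 199.0 TPM in WT, while GILZ KO had 182.3, 189.6 and 179.2 TPM and GILZ TG 149.5, 154.5 and 180.8 TPM. Its rank in WT was 835. Sirpa stood above Cd47 in 9 of 9 untreated libraries, and the ratio of both was 3.43 ± 0.550 in WT, 3.66 ± 0.0853 in GILZ KO and 4.17 ± 0.776 in GILZ TG (SD, n = 3).

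The activating receptors were far less abundant. Sirpb1c measured 29.0, 26.7 and 32.0 TPM in untreated WT, Sirpb1b 6.03, 7.57 and 7.10 TPM, and Sirpb1a 4.82, 3.69 and 4.37 TPM. The order was Sirpb1c above Sirpb1b above Sirpb1a in 18 of 18 libraries. Sirpb1c made up between 68.9 and 75.3% of the summed TPM in the means of the 6 groups. In untreated WT the sum of the 3 genes was 6.36 ± 1.00% of the Sirpa level (SD, n = 3).

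**Figure D1:**
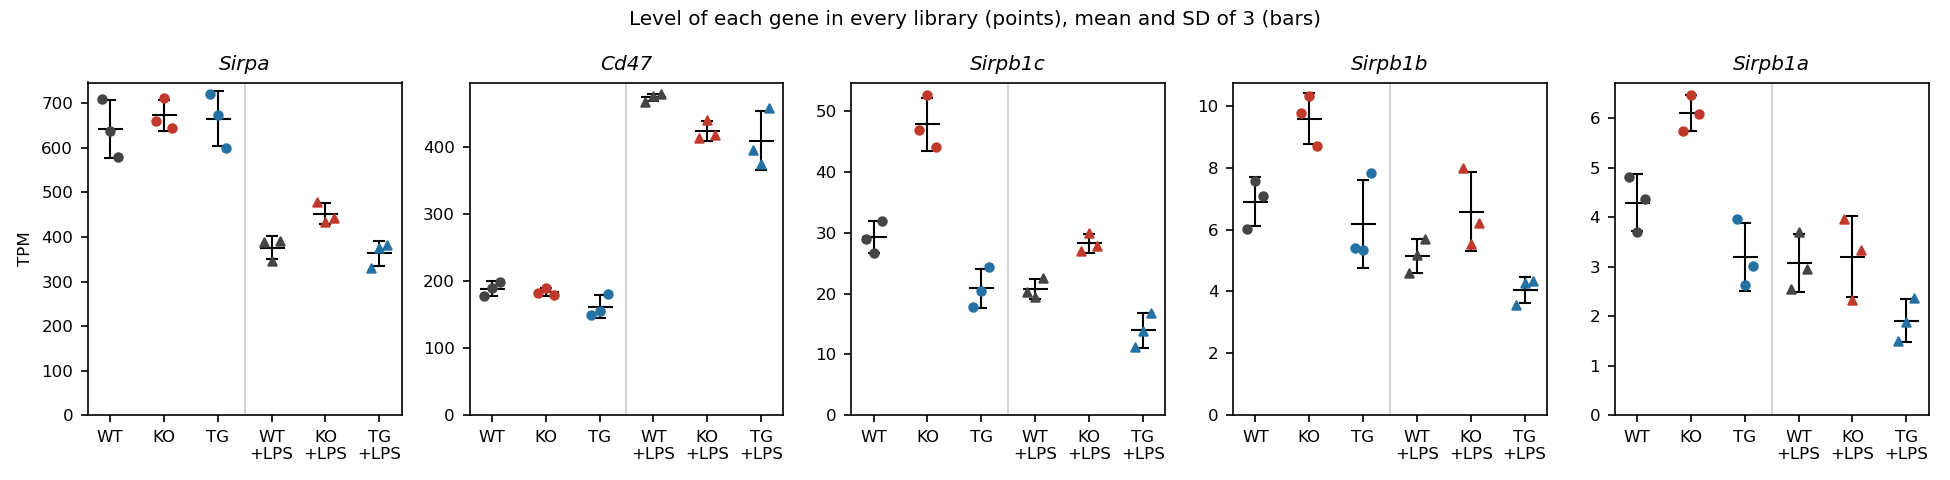
Level in TPM (vertical axes, each from 0) of Sirpa, Cd47, Sirpb1c, Sirpb1b and Sirpb1a in the 18 libraries, as circles for untreated cells and triangles after LPS, with the mean and SD of the 3 libraries of each group. Cd47 is higher in every LPS library than in every untreated one, Sirpa is lower, and untreated Sirpb1c is highest in GILZ KO and lowest in GILZ TG with no overlap.

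The first comparison was between LPS and no treatment within a genotype. It depends on the scale. After LPS the median gene of 13169 stood at -0.62, -0.64 and -0.62 in WT, GILZ KO and GILZ TG on the log2(TPM + 0.1) scale, but at -0.03, -0.03 and -0.02 after the TMM scaling of edgeR, which assumes that most genes keep their level. A change on the TMM scale is thus a change relative to the bulk of the genes, and a change in TPM is one relative to all RNA. On the TMM scale 4415 genes were called higher and 4622 lower in WT, with library sizes alone 2100 and 8990. Adjusted p-values below are those of the quasi-likelihood test of edgeR with the Benjamini-Hochberg method, unless another test is named.

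Cd47, the ligand, rose with LPS in every genotype and on every scale. WT reached 467.9, 475.6 and 478.6 TPM, GILZ KO 412.8, 440.2 and 417.9 TPM, and GILZ TG 395.2, 375.2 and 458.4 TPM. All LPS libraries were above all untreated ones, and the mean TPM was 2.51, 2.31 and 2.53 times that of untreated cells. Relative to the bulk of the genes the log2 fold change was 2.0 (SE 0.0665, adjusted p = 3.86e-14) in WT, 1.84 (SE 0.0664, 1.34e-13) in GILZ KO and 2.01 (SE 0.0666, 3.92e-14) in GILZ TG, a 4.01-, 3.58- and 4.02-fold increase. With limma on log2(TPM + 1) it was 1.33, 1.2 and 1.34. Over the alternatives the adjusted p was at most 5.61e-07, and the rank of Cd47 in WT moved from 835 to 364.

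Sirpa went the other way in TPM. After LPS the WT libraries had 389.7, 346.5 and 391.2 TPM, those of GILZ KO 479.3, 434.6 and 443.8 TPM, and those of GILZ TG 330.6, 375.5 and 383.1 TPM. Each of these is below each untreated library of the same genotype, and the means were 58.6%, 67.2% and 54.6% of the untreated ones. Most of this drop was shared by the median gene. On the TMM scale Sirpa fell by 0.18 (SE 0.0737, adjusted p = 0.0413) in WT and by 0.31 (SE 0.0737, 0.00137) in GILZ TG, while it was at -0.0064 (SE 0.0737, 0.946) in GILZ KO. The value in WT lay near the threshold, with an adjusted p between 5.22e-09 and 0.186 over 16 alternatives and of 0.0823, 0.0537 and 0.186 without untreated replicate 1, LPS replicate 1 or LPS replicate 2 of WT, and that in GILZ TG was -0.08 (0.582) without replicates 1 and 2 of GILZ TG. With limma on log2(TPM + 1) Sirpa fell in all genotypes, by 0.77, 0.57 and 0.87.

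The Sirpb1 genes showed no change relative to the bulk of the genes that passed the test. For Sirpb1c the LPS libraries of WT had 20.2, 19.5 and 22.6 TPM, those of GILZ KO 26.99, 29.9 and 27.8 TPM, and those of GILZ TG 11.2, 13.8 and 16.8 TPM, which is below the untreated libraries of the same genotype in each case. For the sum of the 3 genes the log2 fold change on the TMM scale was 0.13 (SE 0.129, adjusted p = 0.402) in WT, -0.12 (SE 0.129, 0.445) in GILZ KO and -0.01 (SE 0.132, 0.961) in GILZ TG, but with limma on log2(TPM + 1) the sum was lower in all 3, at -0.47, -0.72 and -0.58 (limma, adjusted p = 0.00151, 2.61e-05 and 0.000219). On that log2(TPM + 1) scale the median gene stood at -0.51, -0.52 and -0.51. By these values the sum lay near the median gene in WT and GILZ TG and lower than it in GILZ KO. The added constant matters here, as the median gene in GILZ KO stood at -0.64 on log2(TPM + 0.1). No difference of the sum's LPS change between GILZ KO and another genotype was called (edgeR, adjusted p = 0.899 against WT and 0.921 against GILZ TG).

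In all, 2 of the 5 genes were called in WT, 1 in GILZ KO and 2 in GILZ TG on the TMM scale, where 68.6%, 68.5% and 68.7% of all genes tested were called. On the log2(TPM + 1) scale limma called 5 of 5 in each genotype, Cd47 as higher and the receptors as lower, where 81.0%, 81.4% and 80.8% of all genes were called, so that 5 of 5 is near the share of all genes.

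**Figure D2:**
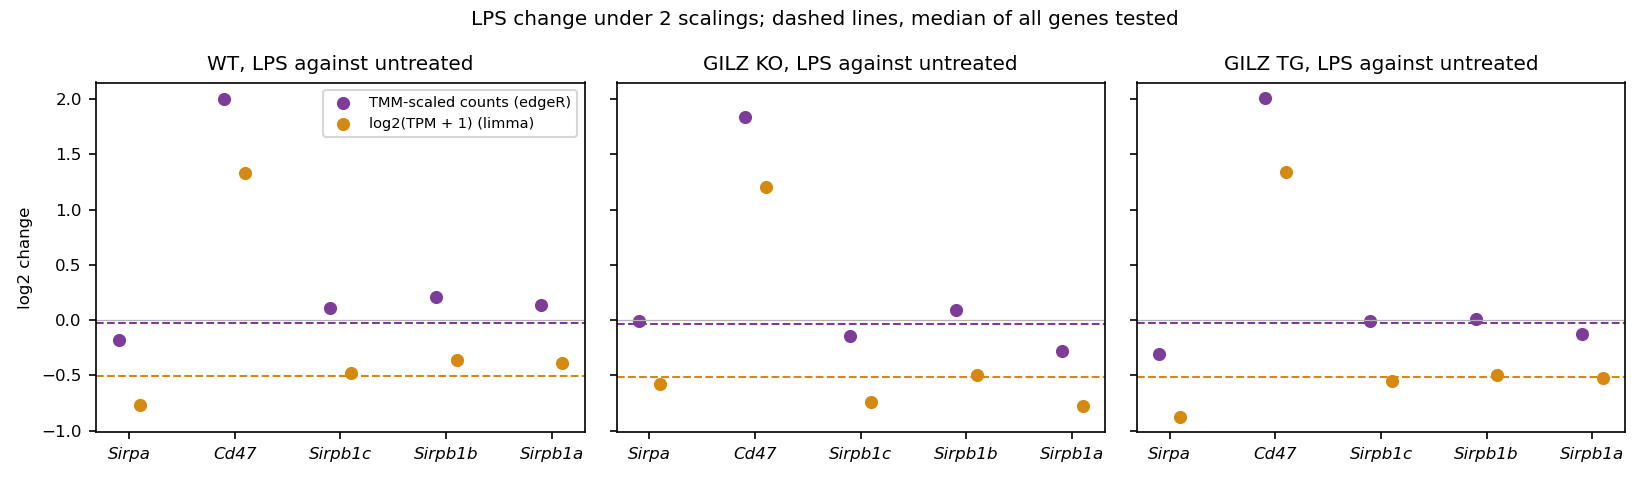
Log2 change after LPS (vertical axis) of the 5 genes in WT, GILZ KO and GILZ TG on the TMM scale of edgeR and on the log2(TPM + 1) scale of limma. The dashed lines are the medians of all 13169 genes on the same scales, and on both scales the Sirpb1 genes lie within 0.3 of that line, Sirpa below it in WT and GILZ TG and Cd47 far above it.

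The LPS response itself was compared between genotypes with the interaction terms of the 18-library fit. No gene of the 5 was called. Over all genes 0.0152% were called for GILZ KO against WT, 0.00759% for GILZ TG against WT and 0.121% for GILZ KO against GILZ TG, while the unadjusted p was under 0.05 for 6.36%, 3.09% and 9.92%. The difference of Sirpa between GILZ KO and GILZ TG was 0.30 on the log2 scale (95% interval 0.08 to 0.52, unadjusted p = 0.0106 and adjusted p = 0.284 by edgeR). For Cd47 the same difference was -0.17 (95% interval -0.36 to 0.03, adjusted p = 0.599), and for the summed Sirpb1 genes it was -0.11 (SE 0.185, adjusted p = 0.921). DESeq2 called none of the 5 either. With genotype and replicate number as a block edgeR called 1.09% of all genes for GILZ KO against GILZ TG and again none of the 5.

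The ratio of ligand to inhibitory receptor does not depend on the scaling, as both genes are read from the same library. LPS raised it in every genotype. After LPS the mean of Sirpa over Cd47 was 0.793 ± 0.0563 in WT, 1.07 ± 0.0872 in GILZ KO and 0.891 ± 0.0951 in GILZ TG (SD, n = 3). GILZ KO and GILZ TG overlapped, with 0.987 as the lowest of GILZ KO and 1.00 as the highest of GILZ TG. A difference of this ratio between genotypes was not tested, and its level also depends on the transcript lengths used for the 2 genes. Sirpa over Cd47 came to 0.833, 0.729 and 0.817 in WT, 1.16, 0.987 and 1.06 in GILZ KO, and 0.837, 1.00 and 0.836 in GILZ TG, so that Cd47 was above Sirpa in 6 of 9 LPS libraries and Sirpa above Cd47 in the other 3. The log2 ratio of Cd47 to Sirpa was -1.89 on average in untreated cells and 0.14 after LPS, a difference of 2.03 (two-sided exact permutation test within genotypes, p = 0.00025, the smallest that 8000 arrangements can give, and 0.00125 adjusted over 5 tests). Within WT, GILZ KO and GILZ TG the difference was 2.10, 1.78 and 2.21. The ratio of the summed activating Sirpb1 genes to Sirpa had no such change, at 0.13 on the log2 scale (exact permutation p = 0.206, adjusted 0.258), and its direction was not the same in all genotypes, with 0.29 in WT, -0.16 in GILZ KO and 0.26 in GILZ TG.

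**Figure D3:**
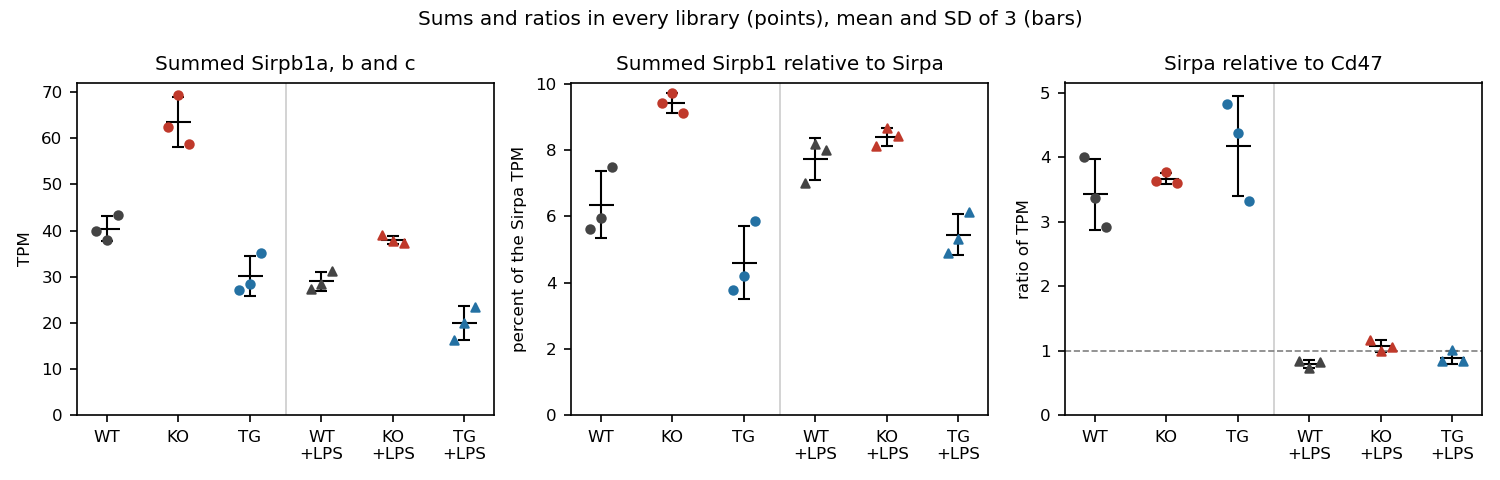
Summed TPM of Sirpb1a, Sirpb1b and Sirpb1c, that sum in percent of the Sirpa TPM, and the ratio of the Sirpa TPM to the Cd47 TPM (vertical axes, from 0) in each of the 18 libraries, with mean and SD of 3. The sum is separate in all 3 genotypes in both treatments, from 58.9 TPM upwards in untreated GILZ KO to 35.1 TPM and below in GILZ TG, and the ratio to Cd47 drops from 2.91 or more to 1.16 or less.

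The genotypes were then compared within a treatment. The summed Sirpb1 genes were ordered GILZ KO above WT above GILZ TG in untreated cells, at 62.4, 69.4 and 58.9 TPM, 39.9, 38.0 and 43.4 TPM, and 27.2, 28.3 and 35.1 TPM. After LPS the order was the same, at 39.0, 37.7 and 37.4 TPM, 27.3, 28.4 and 31.3 TPM, and 16.2, 19.98 and 23.5 TPM. No library of one genotype fell into the range of another in either treatment. Of 11792 genes tested in both treatments, 0.848% had that order without overlap in untreated cells, 0.526% after LPS and 0.0933% in both. The steps to WT did not pass the edgeR test. The adjusted p for GILZ KO and GILZ TG against WT was 0.200 and 0.153 untreated, and 0.347 and 0.0756 after LPS.

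Between GILZ KO and GILZ TG, the 2 ends of this order, the difference passed the test. In untreated cells the sum was higher in GILZ KO by 1.02 on the log2 scale (SE 0.119, adjusted p = 0.00359), which is 2.02-fold, and after LPS by 0.93 (SE 0.119, adjusted p = 0.00598), which is 1.90-fold. Sirpb1c carried most of it. Its untreated level in GILZ KO was 46.9, 52.7 and 44.1 TPM and in GILZ TG 17.8, 20.4 and 24.3 TPM, a log2 fold change of 1.12 (95% interval 0.84 to 1.41, adjusted p = 0.0032). After LPS the Sirpb1c difference was 1.01 (95% interval 0.70 to 1.31, adjusted p = 0.00785).

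Sirpb1a went with it, at 5.74, 6.47 and 6.08 TPM in untreated GILZ KO and 3.96, 2.62 and 3.01 TPM in GILZ TG. The log2 fold change was 0.92 (SE 0.188, adjusted p = 0.0282), and after LPS it was 0.78 (SE 0.265, adjusted p = 0.136), where replicate 2 of GILZ KO, with 2.32 TPM, fell into the range of GILZ TG. Sirpb1b was called after LPS, with 0.71 (SE 0.160, adjusted p = 0.0461), but not in untreated cells, with 0.60 (SE 0.174, adjusted p = 0.0715). Both genes rest on few reads, as Sirpb1a had between 21.7 and 95.7 and Sirpb1b between 63.5 and 200.6 expected counts over the 18 libraries, and how the reads they share with Sirpb1c were divided was not tested.

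Counted by gene, 2 of 5 were called higher in GILZ KO than in GILZ TG in each treatment and none lower. Of all genes 4.94% were called in untreated cells, 2.77% as higher, and 2.6% after LPS, 1.22% as higher. Leaving out 1 library at a time kept Sirpb1c and the sum past the threshold in every case, while Sirpb1a in untreated cells was lost without replicate 1, 2 or 3 of GILZ KO or replicate 2 of GILZ TG (adjusted p = 0.0937, 0.107, 0.0801 and 0.115 by edgeR). Sirpb1b after LPS held only without replicate 3 of GILZ TG (0.0172) and was between 0.0552 and 0.207 without any of the others. Without replicate 3 of GILZ TG, Sirpb1b in untreated cells and Sirpb1a after LPS were called as well (adjusted p = 0.00892 and 0.0476 by edgeR), with 10.1% and 11.2% of all genes called there. Without overlap were 3 of 5 in untreated cells, the Sirpb1 genes, and also 3 of 5 after LPS, Sirpb1c, Sirpb1b and Sirpa, beside 28.7% and 20.6% of all genes.

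The 2 GILZ TG replicates with the most stromal, neutrophil and B cell RNA were also those with the lowest Sirpb1c. In the untreated GILZ TG libraries Sirpb1c was 17.8 and 20.4 TPM in replicates 1 and 2 and 24.3 TPM in replicate 3, and after LPS 11.2 and 13.8 against 16.8 TPM. Without replicates 1 and 2 the log2 fold change of Sirpb1c between GILZ KO and GILZ TG was 0.87 (adjusted p = 0.0623) in untreated cells and 0.68 (0.0724) after LPS, and that of the sum was 0.76 (0.0642) and 0.64 (0.0516). For Sirpb1b it was 0.25 (0.509) and 0.58 (0.409), and for Sirpb1a 0.98 (0.14) and 0.42 (0.722). That fit called 34 of 13081 and 34 of 12592 genes in all, beside 623 and 316 with all libraries. The spread of the lone GILZ TG library was taken from the other groups in that fit. In bulk RNA fewer cells of a type and less RNA per cell cannot be told apart.

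**Figure D4:**
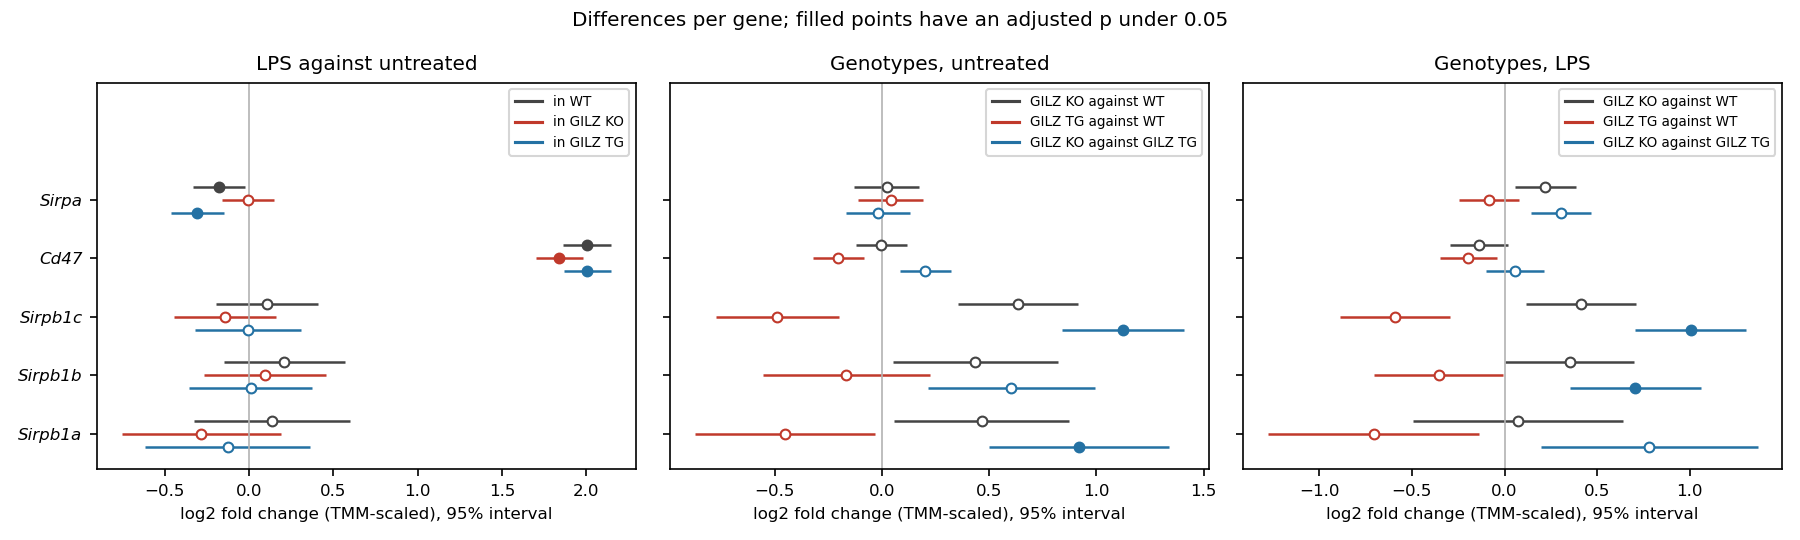
Log2 fold change on the TMM scale (horizontal axes) of the 5 genes with 95% intervals, for LPS against untreated in the 3 genotypes and for the 3 pairs of genotypes in untreated and LPS-treated cells. Filled points passed an adjusted p of 0.05. Cd47 stands at 1.84 to 2.01 in all genotypes after LPS, and among genotypes only Sirpb1c is called in both treatments, for GILZ KO against GILZ TG.

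In the comparisons with WT none of the 5 genes was called by edgeR with all libraries, TMM scaling and the filter on low counts. In untreated GILZ KO the 3 Sirpb1 genes were all above WT without overlap, Sirpb1c with a log2 fold change of 0.63 (95% interval 0.36 to 0.91, adjusted p = 0.199), Sirpb1a with 0.46 (0.486) and Sirpb1b with 0.44 (0.488). The edgeR test called 0.0951% of all genes in that comparison, while 9.6% had an unadjusted p under 0.05 and 17.2% did not overlap. DESeq2 called Sirpb1c there (adjusted p = 0.00193) and, of all genes, 79 (0.626%) in place of 12. With no filter edgeR called Sirpb1c there too (adjusted p = 0.0408), beside 21 of 20266 genes. In GILZ TG the sum was at -0.43 (SE 0.119, adjusted p = 0.153) in untreated cells and at -0.55 (SE 0.118, 0.0756) after LPS, where 0.642% and 0.46% of all genes were called by edgeR, and 14.1% and 15.2% had an unadjusted p under 0.05. DESeq2, which called 2.52% and 2.25% of all genes, gave the sum an adjusted p of 0.039 and 0.00438. It also called Sirpb1c, at -0.49 (adjusted p = 0.0253) in untreated cells and -0.60 (0.00816) after LPS. After LPS edgeR with no filter called Sirpb1c as well (adjusted p = 0.00707), beside 412 of 20009 genes. Without replicate 3 of GILZ TG edgeR gave the sum an adjusted p of 0.0105 and 0.0014. Without that replicate Sirpb1c was called too, with -0.63 (adjusted p = 0.012) in untreated cells and -0.76 (0.00224) after LPS, and so was Cd47, with -0.25 (0.0221) and -0.26 (0.0324). That fit keeps the 2 GILZ TG replicates with the most RNA of other cells, and it called 5.16% and 8.52% of all genes. Without replicates 1 and 2 in its place, Sirpb1c was at -0.23 (adjusted p = 0.646) and -0.27 (0.658), beside -0.49 and -0.59 with all libraries, and the sum was at -0.17 (0.693) and -0.27 (0.574). After LPS GILZ KO differed from WT by 0.41 for Sirpb1c (adjusted p = 0.370) and by 0.22 for Sirpa (0.393), where 0.0822% of all genes were called and 9.63% had an unadjusted p under 0.05.

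Sirpb1c was the only one of the 5 genes with GILZ KO above WT above GILZ TG, without any overlap, in untreated cells, and also after LPS. This was noticed after its values had been seen. Of 11792 genes tested in both treatments, 0.848% had that order in untreated cells, 0.526% after LPS, and 11 (0.0933%) in both.

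For Sirpa and Cd47 no difference between genotypes passed the test of edgeR with all libraries, TMM scaling and the filter on low counts, while some passed under other settings. In untreated cells Cd47 was lower in GILZ TG than in WT by a log2 of -0.20 (95% interval -0.32 to -0.09, adjusted p = 0.138) and higher in GILZ KO than in GILZ TG by 0.20 (95% interval 0.08 to 0.32, adjusted p = 0.0588). The 2 GILZ TG replicates with the most RNA of other cells had the lowest Cd47 here too, and without them the differences were -0.11 and 0.11. DESeq2 called both differences (adjusted p = 0.0193 and 0.0106), and it called 9.65% of all genes between GILZ KO and GILZ TG. Without replicate 3, the third GILZ TG library, Cd47 was called between GILZ KO and GILZ TG (0.24, adjusted p = 0.0159 by edgeR), where 10.1% of all genes were called. After LPS Sirpa was higher in GILZ KO than in GILZ TG by 0.30 (95% interval 0.14 to 0.47, adjusted p = 0.0554), at 479.3, 434.6 and 443.8 against 330.6, 375.5 and 383.1 TPM, with no overlap. DESeq2 called it, as 5.88% of all genes, and so did edgeR without replicate 3 of GILZ TG (0.35, adjusted p = 0.0122), as 11.2% of all genes, with no filter (0.30, 0.0437) or with library sizes alone (0.31, 0.0422), but without replicates 1 and 2 of GILZ TG it was at 0.20 (0.479). Between GILZ KO and WT, untreated Sirpa differed by 0.02 (95% interval -0.13 to 0.17) and Cd47 by -0.0038 (95% interval -0.12 to 0.12).

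The mix of transcripts of Sirpa also moved with LPS. The deposited length of a gene is the mean of its transcripts weighted by their abundance, and for Sirpa, with 14 transcripts in the data, it was 3239 bases on average in untreated cells and 3114 bases after LPS. The difference was -125 bases (two-sided exact permutation test within genotypes, p = 0.00075, adjusted 0.00188 over 5 tests), with -83.0 in WT, -145.4 in GILZ KO and -146.1 in GILZ TG. The groups were not fully apart, as replicate 3 of WT after LPS had 3266 bases. Sirpb1c, with 7 transcripts, was shorter by 28.9 bases (exact permutation p = 0.0198, adjusted 0.0329), and for Cd47, with 2 transcripts, the difference of 25.2 bases did not pass the test (p = 0.461, exact permutation). Which transcripts changed was not resolved here.

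The genes that carry the signal of these receptors were taken from 6 lists. With LPS in WT, edgeR called 33.5% of all genes higher and 35.1% lower on the TMM scale, and limma called 16.1% higher and 65.0% lower on log2(TPM + 1), and the counts below are to be read against these shares. Of the inhibitory arm downstream of SIRPα, 10 of 13 genes were called higher and 2 lower with LPS in WT on the TMM scale, but 4 higher and 7 lower with limma on log2(TPM + 1), and the median fitted change on the TMM scale was 0.39, beside -0.02 for the fitted changes of all genes tested. Src and Lyn, kinases that phosphorylate ITIMs, rose on both scales, Src from 5.42 ± 1.27 to 48.2 ± 5.39 TPM (log2 fold change 3.86, adjusted p = 1.19e-12) and Lyn from 96.5 ± 5.06 to 321.9 ± 32.4 TPM (2.37, 2.08e-13; SD, n = 3). Inpp5d, the lipid phosphatase SHIP-1, fell on both, from 154.6 ± 27.0 to 35.9 ± 6.51 TPM (-1.43, adjusted p = 7.06e-09). Ptpn6, which encodes SHP-1 and was added for its role, was at 0.55 on the TMM scale but went from 261.6 ± 5.03 to 245.1 ± 9.76 TPM (SD, n = 3).

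Of the activating arm 3 of 10 genes were called higher and 4 lower on the TMM scale, and 2 higher and 7 lower with limma on log2(TPM + 1), which is near the shares of all genes on both scales. Syk, the kinase that DAP12 recruits, rose from 123.7 ± 16.9 to 262.9 ± 16.7 TPM (log2 fold change 1.70, adjusted p = 2.23e-12) and its adaptor Blnk from 42.8 ± 3.06 to 87.3 ± 4.74 TPM (1.65, 1.56e-11). The adaptor Lat2 fell from 352.9 ± 18.9 to 110.8 ± 8.49 TPM (-1.04, 9.17e-09) and Card9, which links Syk to NF-kB, from 59.8 ± 3.42 to 18.9 ± 0.211 TPM (-0.86, 1.50e-07; SD, n = 3). Tyrobp, the gene of DAP12 itself, was added for its role and was far more abundant than the Sirpb1 receptors, with 1543 ± 44.2 TPM in untreated WT and 1073 ± 74.6 TPM after LPS (0.11 on the TMM scale, adjusted p = 0.242).

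Of the partners of CD47 and the enzymes that process it, 10 of 12 genes were tested, and 4 were called higher and none lower on the TMM scale, but 2 higher and 4 lower with limma on log2(TPM + 1). Thbs1, the CD47 ligand thrombospondin-1, rose from 6.84 ± 1.82 to 40.6 ± 4.50 TPM (log2 fold change 3.18, adjusted p = 6.39e-07) and the integrin Itgav from 110.4 ± 22.6 to 234.8 ± 26.4 TPM (1.72, 2.98e-09; SD, n = 3). Itgb1 was at 0.58 and Ubqln1 at 0.28 on the TMM scale, both called, and these 2 were at -0.05 and -0.35 with limma on log2(TPM + 1). Qpctl, the enzyme that finishes the SIRPα binding site of CD47, was at -0.13 (adjusted p = 0.149), and it was named for that role.

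Among 8 genes of other engulfment checkpoints 5 were called higher and none lower, 4 and 3 with limma on log2(TPM + 1). Cd274, which encodes PD-L1, rose from 10.9 ± 2.33 to 519.1 ± 86.6 TPM (log2 fold change 6.20, adjusted p = 1.09e-15), Slamf7 from 18.1 ± 3.51 to 324.0 ± 59.5 TPM (4.80, 2.33e-14) and Pirb, a receptor for MHC class I, from 282.0 ± 13.4 to 492.0 ± 51.4 TPM (1.44, 4.95e-09; SD, n = 3). Siglecg was called but stayed under 1 TPM. Of 15 other ITIM receptors 11 were called higher and 2 lower, 8 and 3 with limma on log2(TPM + 1), with Fcgr2b (4.26), Siglece (2.58), Pilra (2.01) and Cd33 (1.58) as the 4 with the largest log2 fold change on the TMM scale. Of 7 other DAP12-coupled receptors 3 were called higher and 2 lower, 2 and 2 with limma on log2(TPM + 1), with Cd300lb at -2.56, Pilrb1 at 1.79, Pilrb2 at 1.46 and Clec5a at 0.99. The medians of these 3 lists were 1.34, 0.97 and 0.13. On the TMM scale the inhibitory arm had 10 and 10 of 13 genes called higher and 2 and 2 lower in GILZ KO and GILZ TG. Of all genes 33.2% and 33.6% were called higher there and 35.4% and 35.1% lower. The counts on log2(TPM + 1), which in WT had fewer genes higher and more lower, are not given for these genotypes.

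**Figure D5:**
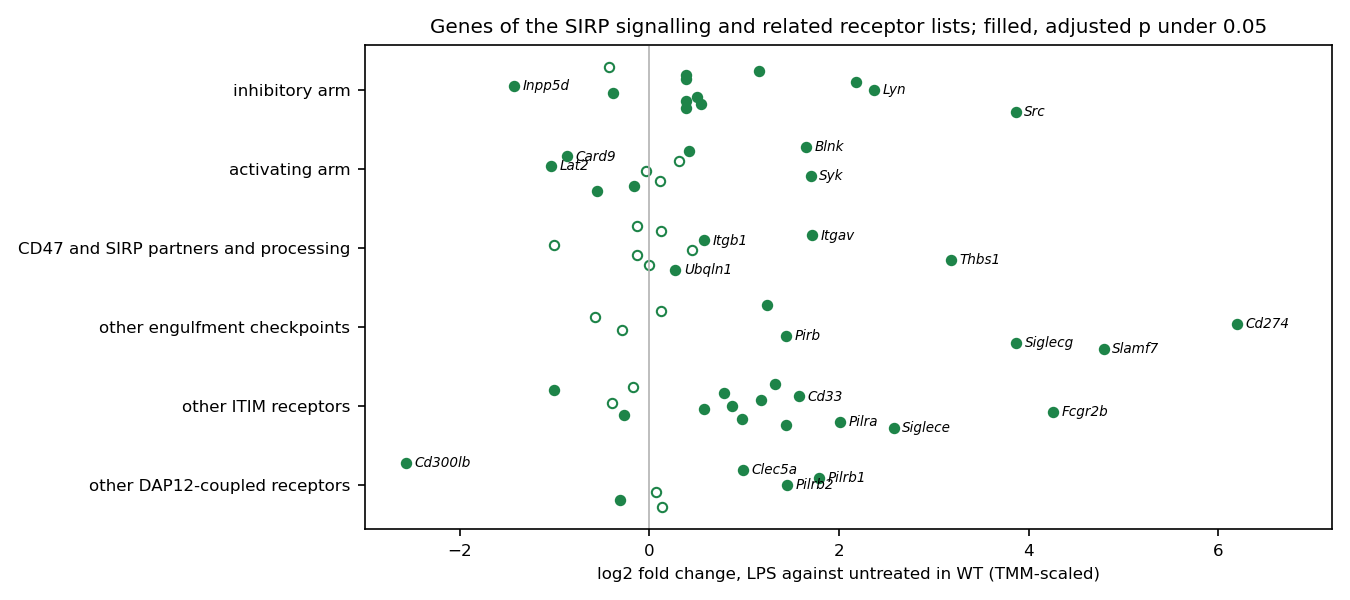
Log2 fold change after LPS in WT on the TMM scale (horizontal axis) of each tested gene in the 6 lists (rows), with points filled where the adjusted p was under 0.05 and 3 or 4 of the called genes with the largest change named in each list, where there are as many. The inhibitory arm has 10 filled points to the right of 0 and the activating arm 3, and these counts are 4 and 2 on the log2(TPM + 1) scale.

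Of the 61 list genes tested between genotypes, 8 (13.1%) were called in untreated GILZ KO against GILZ TG, beside 4.94% of all genes, and 3 (4.92%) after LPS, beside 2.6%. In GILZ TG against WT 3 (4.92%) were called in untreated cells, beside 0.642% of all genes. No list gene was called in GILZ KO against WT or in GILZ TG against WT after LPS. In untreated cells Blnk was higher in GILZ TG than in WT by 0.40 (adjusted p = 0.0096), as were Clec12a by 0.27 (0.0397) and Cd72, an ITIM receptor best known from B cells, by 0.94 (0.0199). Against GILZ TG, untreated GILZ KO had higher Cd274 (0.60, adjusted p = 0.035), Pirb (0.36, 0.0461), Adam10 (0.31, 0.0225) and Plcg2 (0.22, 0.0389), and lower Cd72 (-1.20, 0.00359), Blnk (-0.41, 0.00433), Trem2 (-0.31, 0.0175) and Clec12a (-0.31, 0.0114). After LPS Siglece was higher (1.05, adjusted p = 0.0146), and Cd72 (-0.95, 0.0202) and Lair1 (-0.30, 0.0477) were lower. The stromal, neutrophil and B cell markers were higher in GILZ TG replicates 1 and 2, and all of these calls involve GILZ TG. The part of this RNA in them was not tested, nor was that of B cells in Cd72 and Blnk, which B cells express. Leaving out 1 library at a time, 2 of these 14 calls held in every case, those of Blnk and Cd72 in untreated GILZ KO against GILZ TG, and each of the other 12 was lost without at least 1 library. Each of these fits kept at least 1 of GILZ TG replicates 1 and 2, and the list genes are not given here without both. Tyrobp and Syk, which Sirpb1 receptors need, were called in no comparison of genotypes.

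The genes next to the 5 were those whose start lay within 250 kb of a member's start. The start of Gm5150 lies 157.9 kb from that of Sirpb1c, and the gene had a log2 fold change of 0.35 (adjusted p = 0.233) in untreated cells and 0.55 (0.143) after LPS for GILZ KO against GILZ TG, with all GILZ KO libraries above all GILZ TG ones. Its LPS change in WT was 0.06 on the TMM scale and -0.48 with limma on log2(TPM + 1). Ift57, whose start lies 101.3 kb from that of Cd47, rose with LPS too, by 1.45 in WT, 1.49 in GILZ KO and 1.44 in GILZ TG (adjusted p = 8.02e-10, 7.63e-10 and 9.42e-10). Near Sirpa, Il1b rose by 10.04 and Stk35 fell by 0.51 in WT on the TMM scale. The other tested neighbours of Sirpa were Il1bos, which overlaps Il1b on the other strand, with 8.07, and F830045P16Rik, at under 1 TPM, with -0.61 (adjusted p = 0.28).

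The genes most like each member were taken from Pearson's r of log2(TPM + 1) over the 18 libraries among 9423 genes. These libraries share treatments and genotypes, so that r is a description. For Cd47 the nearest were Ms4a6b (0.995), Snx10, Cept1, Tlr2 and Ppp2r5a (0.994), and Tlr2 for example went from 125.5 TPM to 408.6 TPM in WT. Nearest to Sirpa were Mief1 (0.981), Kcnj2, Fgd4, Exoc3 and Hmgxb3 (0.980). Sirpb1c was most like Pag1 (0.922), Smpdl3a, Tpt1, Sirpb1b (0.912) and Gprc5b (0.907), and among 9423 genes its copy Sirpb1b was thus in place 4, beside the reads they share. Nearest to Sirpb1b were Tpt1 (0.921), Slc16a3, Sirpb1c, Ube2q2 and Smpdl3a (0.906). Gprc5b for example had an untreated mean of 8.23 TPM in WT, with 10.4 and 4.29 TPM in GILZ KO and GILZ TG. Cd47 and Sirpa had r = -0.94, Sirpa and Sirpb1c 0.63.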

How the data were processed

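RNA of 18 BMM libraries was analysed. The authors sequenced poly(A) RNA with single reads of 75 bases, mapped them to GRCm38 with the grape-nf pipeline and deposited per library and gene an expected count (estimated reads, not normalized) and a TPM value, which is scaled by effective length and total, both laid out as RSEM writes them. The deposited transcript lengths and standard deviations of the estimated counts were used too. The authors' DESeq2 (1.40.2) tables hold log2 fold changes and p-values, and only their gene names were used. 14 files had 1 row without a gene name, which was left out.

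Expected counts were rounded, filtered with filterByExpr, normalized with TMM factors and fitted across all genes in edgeR 4.0.16 (R 4.3.3; glmQLFit, glmQLFTest), with Benjamini-Hochberg adjustment and a threshold of 0.05. The 18 libraries were fitted together for LPS and its interaction with genotype (13169 genes), the 9 of a treatment for genotypes (12621 and 12164 genes). Alternatives were DESeq2 1.42.0, limma 3.58.1 on log2(TPM + 1) and log2(TPM + 0.1), other scalings and filters, other sets of libraries, a replicate block and leaving out each replicate. On simulated data 97.5% of 200 changed genes were found for LPS in WT and 99% for GILZ KO against WT in untreated cells, and 6.25% and 5.26% of the calls were false. The simulation changed only these 200 of 13169 and 12621 genes, as many up as down. It took well-counted genes and 1 fixed spread. In the data 68.6% of genes were called for LPS in WT, so that it does not measure how many of those calls are right. Replicates were independent preparations per the study's legends. Whether an untreated and an LPS library of 1 number came from the same preparation was not given in the sources used here. Their deviations from the group means correlated in all 3 pairs of GILZ TG (r = 0.266, 0.397 and 0.605). In WT r was 0.264, -0.0129 and 0.0545, and in GILZ KO -0.0335, 0.0857 and 0.0953. Low values from 3 libraries a group do not show that samples were unpaired, so a pairing in WT or GILZ KO is not settled. The main LPS fits and the permutation tests took no account of pairing. The Sirpb1a and Sirpb1b counts were low, and the part of depth in their precision was not tested. Shared sequence was counted on GENCODE transcripts of GRCm38, whose release may be later than the authors'. The genes and lists were chosen with earlier results of these data known. Named were the 5 genes, in each list up to 4 called genes with the largest LPS change in WT (1 of them is not reported here), list genes called between genotypes, tested neighbours, and the 5 genes most like each member, except Sirpb1a, whose mean over the 18 libraries was under 5 TPM.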

Additional observations from a re-analysis of the deposited data

How the results depend on the processing

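Of the values that answer a comparison, 423 kept their direction and side of the threshold under the alternatives, 45 counts moved by over 1.5 times, 11 values reversed, 11 passed the threshold anew and 2 lost it. Among single genes the numbers were 2245, 83, 75, 44 and 115. Cd47 with LPS was called in every fit, and Sirpb1c in GILZ KO against GILZ TG in all but the fit without GILZ TG replicates 1 and 2. Sirpb1a and Sirpb1b had few reads, and the part of depth in their results was not tested. Library sizes alone, and the sum without those replicates, were chosen after seeing the data. Where no cause is given, the cause was not tested.

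The scale moved the LPS results most. In WT, Sirpb1a, Sirpb1b and Sirpb1c were at -0.54, -0.47 and -0.57 with library sizes alone, at -0.38, -0.36 and -0.47 with limma on log2(TPM + 1) and at -0.48, -0.41 and -0.49 with limma on log2(TPM + 0.1), and Sirpb1b was at -0.54, -0.49 and -0.55 in GILZ KO and at -0.66, -0.49 and -0.58 in GILZ TG. The sum was at -0.55, -0.75 and -0.68 in WT, GILZ KO and GILZ TG with library sizes alone and at -0.47, -0.72 and -0.58 with limma on log2(TPM + 1). Of the 5 genes 5 were called in each genotype with library sizes alone and with limma on log2(TPM + 1), and 4, 5 and 5 with limma on log2(TPM + 0.1), beside 10894 to 11090, 10638 to 10717 and 10624 to 10711 of all 13169 genes. For Gm5150, Itgb1 and Ubqln1 in WT the values were -0.61, -0.10 and -0.40 with library sizes alone, -0.48, -0.047 and -0.35 with limma on log2(TPM + 1), and -0.56, -0.047 and -0.36 with limma on log2(TPM + 0.1). With these scales the inhibitory arm had 4 genes called higher and 8 or 7 lower in WT.

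In WT 1 of 5 genes was called with LPS by DESeq2, with its size factors, with the 6 libraries alone or at a threshold of 0.01, beside 8981, 9050 and 7886 of 13169 genes by DESeq2, with its size factors and at 0.01, and 8510 of 12506 with the 6 libraries. Sirpa in GILZ KO was at 0.024 under DESeq2 and at 0.024 with its size factors, Sirpb1c in GILZ TG at 0.024 and 0.019, and the sum in GILZ TG at 0.018 under DESeq2. Sirpb1b in GILZ TG was at -0.015 without a filter, -0.013 with a stricter one, -0.0068 with protein-coding genes only and -0.0037 with the 6 libraries alone.

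Between genotypes DESeq2 called 1 of 5 genes in untreated GILZ KO and 2 of 5 in untreated GILZ TG against WT, 1 of 5 in GILZ TG against WT after LPS, and 4 of 5 in GILZ KO against GILZ TG without LPS. Of all genes it called 79 of 12618, 312 of 12373, 274 of 12162 and 1218 of 12618 in these comparisons. The sum was at 0.59, -0.43 and -0.56 in the 3 comparisons with WT under DESeq2, and at 0.58 and -0.56 in the first and the last without a filter. There 1 of the 5 genes was called in each, beside 21 of 20266 and 412 of 20009 of all genes. With all 18 libraries in one fit 1 gene was called in GILZ TG against WT after LPS, beside 252 of 13169 of all genes. Cd47 was at 0.00034 with that fit in untreated GILZ KO against WT, and at 0.0097 with library sizes alone. Untreated Sirpa in GILZ KO against GILZ TG was at 0.020 with both limma fits. At a threshold of 0.01, 1 gene was called in GILZ KO against GILZ TG in each treatment, beside 63 of 12621 and 43 of 12164 of all genes. After LPS 1 gene was called there with both limma fits and with the 6 libraries alone, beside 147, 149 and 268 of all genes.

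Without GILZ TG replicates 1 and 2, 1 gene was called for LPS in GILZ TG and 0 in GILZ KO against GILZ TG in either treatment, beside 7106 of 13460, 34 of 13081 and 34 of 12592 of all genes. The LPS change in GILZ TG was 0.32 for Sirpb1a, -0.20 for Sirpb1b, 0.079 for Sirpb1c and 0.042 for the sum, and the interaction of Sirpa against WT was 0.094. Against WT, untreated Sirpa and Sirpb1b were at -0.069 and 0.19 and Sirpa after LPS at 0.014. In GILZ KO against GILZ TG untreated Sirpa was at 0.090, Cd47 after LPS at -0.070, and the sum at 0.76 and 0.64.

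Between genotypes there was little sign of a pairing by replicate number, as 2 of 18 correlations between same-numbered libraries were over 0.1. Between untreated and LPS libraries 4 of 9 were, 3 of them those of GILZ TG. The block changed no call of the 5 genes with LPS or in the interactions. With the replicate block 1 gene was called in GILZ KO against GILZ TG after LPS, beside 273 of all genes, and the LPS change in GILZ TG was 0.0065 for Sirpb1c and 0.0013 for the sum. Of all genes the block called 905 in place of 623 for GILZ KO against GILZ TG without LPS and 144 in place of 16 in the interaction of GILZ KO and GILZ TG.

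The counts over all genes moved too. In GILZ KO against WT, GILZ TG against WT and GILZ KO against GILZ TG the main counts were 12, 81 and 623 untreated and 10, 56 and 316 after LPS. DESeq2 gave 79, 312 and 1218 and 100, 274 and 715, limma on log2(TPM + 1) 8, 41 and 268 and 17, 30 and 147, no filter 21, 175 and 880 and 88, 412 and 822, and the 18-library fit 29, 252 and 795 after LPS. The interactions had 2, 1 and 16 calls against 21, 2 and 131 by DESeq2.

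Leaving out 1 replicate at a time, the LPS change ranged from -0.031 to 0.25 for Sirpb1a and from -0.042 to 0.11 for Gm5150 in WT, from -0.066 to 0.011 for Sirpa and from -0.053 to 0.19 for Sirpb1b in GILZ KO, and in GILZ TG from -0.31 to 0.029 for Sirpb1a, -0.12 to 0.21 for Sirpb1b, -0.18 to 0.15 for Sirpb1c and -0.17 to 0.13 for the sum. The interaction ranged from -0.073 to 0.077 for Cd47 and from -0.29 to 0.035 for the sum in GILZ TG against WT, and from -0.26 to 0.050 for the sum in GILZ KO against GILZ TG. Between genotypes the ranges were -0.019 to 0.075 for Sirpa and -0.029 to 0.018 for Cd47 in untreated GILZ KO against WT, -0.0027 to 0.094 for untreated Sirpa in GILZ TG against WT, -0.075 to 0.024 for untreated Sirpa in GILZ KO against GILZ TG, and -0.086 to 0.24 for Sirpb1a in GILZ KO against WT after LPS. The sum in GILZ TG against WT lay between -0.57 and -0.35 untreated and between -0.70 and -0.42 after LPS. The number of the 5 genes called was 1 to 2 for LPS in WT, 0 to 2 in GILZ TG against WT and 1 to 4 in GILZ KO against GILZ TG, in each treatment. Over the same fits the number of all genes called was 8543 to 8819 for LPS in WT, 16 to 665 untreated and 15 to 1067 after LPS in GILZ TG against WT, and 79 to 1306 and 24 to 1403 in GILZ KO against GILZ TG.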
